A study of Mus musculus with 13 samples.

Results

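The 34 genes described here carry out or control the mitochondrial and peroxisomal oxidation of fatty acids. They were chosen by name from the known pathway, and each was read from the RefSeq transcript of that gene with the most counts. All 34 were present among the 24520 genes of the count table. Passing the filter on low counts, as 11949 genes did, was a condition for being kept in the list. That all 34 passed it is therefore not a result. RNA-seq had been performed on bone marrow-derived macrophages (BMDMs) of female mice, either control animals with floxed Acly alleles (AclyM-WT in the labels, fl/fl without Cre) or AclyM-KO animals. In the latter, Cre made under the Lyz2 (LysM) promoter deletes Acly, the enzyme that turns cytosolic citrate into acetyl-CoA, in myeloid cells. All cultures had received LPS, the bacterial cell wall component that activates macrophages, for 3 h or 24 h, and unstimulated cells were not analysed here. The comparisons below rest on 12 libraries, with 3 control and 3 AclyM-KO libraries at each time. Mouse age was not given in the sources used here.

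Fatty acids are first joined to coenzyme A by acyl-CoA synthetases and are carried into mitochondria as carnitine esters. There they pass through a spiral of dehydrogenation, hydration, a second dehydrogenation and thiolysis, and electrons from the first dehydrogenation reach the respiratory chain through the electron transfer flavoprotein. Peroxisomes run a parallel pathway for very long and branched chains that starts with an oxidase. LPS-activated macrophages are known to rely on glycolysis, whereas fatty acid oxidation is usually associated with alternatively activated macrophages.

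The 12 libraries held 21274102 to 59577343 counts each. A thirteenth library, control 24 h replicate 1, held 34467 counts in all and 28 over the 34 genes, and was left out. Acly itself, the check of the genotype labels, was at 105, 107 and 106 CPM, counts scaled to the library size, in the control libraries and at 37.7, 46.2 and 41.5 CPM in the AclyM-KO libraries at 3 h, and at 107 to 113 CPM against 29.1 to 30.5 CPM at 24 h. All 8 macrophage markers looked at were present. Their summed level was 9984 to 10081 CPM in control and 6915 to 7852 CPM in AclyM-KO libraries at 3 h, and 6031 to 6333 CPM against 4523 to 4627 CPM at 24 h. Without Lyz2, the gene that carries Cre, the sums were 4716 to 4860, 4643 to 4908, 3635 to 3812 and 3579 to 3767 CPM in the same order. Single markers still differed: 5 of the 8 passed the adjusted p between genotypes at 3 h, with Lyz2 (-0.97), Mertk (-0.31), Fcgr1 (-0.26) and Cd14 (-0.15) lower and Adgre1 (0.24) higher in AclyM-KO cells on the log2 scale, and Lyz2 (-1.40) and Mertk (-0.33) were lower at 24 h. Neutrophil precursor markers summed to 11.9 to 15.3 CPM at 3 h and 3.44 to 4.70 CPM at 24 h, with Ly6g and Retnlg at 0 in every group, and fibroblast, lymphocyte, dendritic cell and mast cell lists reached at most 2.69 CPM in any library. The part of these markers in the results was not tested, and in bulk RNA fewer cells of a type and less RNA per cell cannot be told apart. The labels do not say whether replicates came from separate mice or cultures, so p-values measure the spread between these libraries only.

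The counts appeared to hold reads of both strands. Patl2, which overlaps B2m on the other strand, held 1.00 to 1.01 times the counts of B2m in every library, although the library kit was strand-specific. Acadvl shares 42.9% of its exon bases with Dvl2 on the other strand, and Acot8 shares 12.3% with Snx21, Acsl1 9.91% with Gm45244, Acsl5 8.31% with Zdhhc6, Acaa1a 6.57% with Myd88 and Acox3 6.08% with 4931431C16Rik, so their counts may include the partner's reads. Stretches at least 95% identical to another transcript made up 69.8% of Hadhb (pseudogene Gm13910), 81% of Acaa1a (chiefly Acaa1b), 58% of Acot2 (chiefly Acot1), 51.4% of Acad10 (chiefly Acad12), 70.1% of Etfb (the overlapping Gm45233) 17.5% of Etfa (pseudogene Gm15289) and 20.7% of Acad9 (chiefly Gm43079). The values of these genes are therefore less certain than those of the others. The copies differed in their own counts over the 12 libraries. Acaa1b held 2 beside 10656 for Acaa1a, Acot1 17 beside 361 for Acot2, and Acad12 579 beside 653 for Acad10.

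Promoters of 5 genes that are named in the results below are shown. They are Acsl1, which rose most with time, and Ppard, which rose with time and was higher in AclyM-KO cells at 24 h. The others are Acsl4 and Hadh, which were lower in AclyM-KO cells at 24 h, and Hadha, whose start lies head to head with that of Hadhb. A link between these sequences and the changes in expression was not tested. Each sequence is the stretch of 250 bases before the RefSeq transcription start (build GRCm38.p6), written 5′ to 3′ on the gene's own strand. Capitals mark GC boxes (GGGCGG) and CCAAT boxes (CCAAT) on either strand. For Acsl1, the window before the start of the transcript counted here is shown (290005 counts over the 12 libraries). A shorter transcript that starts further downstream shares most of its exons and held 288756 counts, so use of the separate starts cannot be told apart.
Acsl1, chr8:46470787-46471036, + strand: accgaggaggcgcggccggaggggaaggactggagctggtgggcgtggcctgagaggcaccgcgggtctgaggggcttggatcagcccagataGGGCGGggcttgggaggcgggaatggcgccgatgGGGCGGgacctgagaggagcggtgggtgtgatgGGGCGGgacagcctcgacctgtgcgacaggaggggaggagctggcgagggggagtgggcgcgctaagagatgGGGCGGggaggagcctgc
Ppard, chr17:28232504-28232753, + strand: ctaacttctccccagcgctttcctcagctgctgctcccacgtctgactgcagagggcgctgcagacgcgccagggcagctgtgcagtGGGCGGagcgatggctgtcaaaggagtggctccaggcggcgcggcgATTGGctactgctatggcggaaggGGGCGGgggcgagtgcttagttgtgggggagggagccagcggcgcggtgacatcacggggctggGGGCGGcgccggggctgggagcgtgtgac
Acsl4, chrX:142390536-142390785, - strand: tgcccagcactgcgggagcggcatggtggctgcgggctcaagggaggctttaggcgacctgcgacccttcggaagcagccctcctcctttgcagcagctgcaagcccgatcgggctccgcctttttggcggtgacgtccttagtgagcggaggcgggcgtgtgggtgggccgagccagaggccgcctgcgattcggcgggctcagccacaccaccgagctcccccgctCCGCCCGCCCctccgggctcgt
Hadh, chr3:131272102-131272351, - strand: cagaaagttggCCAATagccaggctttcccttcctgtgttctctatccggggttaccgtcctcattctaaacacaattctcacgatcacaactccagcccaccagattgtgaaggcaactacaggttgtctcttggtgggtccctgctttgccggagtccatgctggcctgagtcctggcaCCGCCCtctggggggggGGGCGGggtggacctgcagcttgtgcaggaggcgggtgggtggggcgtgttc
Hadha, chr5:30154981-30155230, - strand: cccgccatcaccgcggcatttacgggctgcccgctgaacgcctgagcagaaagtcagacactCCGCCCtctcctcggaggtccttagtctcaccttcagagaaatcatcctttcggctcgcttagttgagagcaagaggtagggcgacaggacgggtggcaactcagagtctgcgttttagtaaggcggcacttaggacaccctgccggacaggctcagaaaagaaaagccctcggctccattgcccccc

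The Acsl1 stretch held 4 GC boxes and a GC content of 72.0%, against 3 GC boxes and 69.6% for Ppard, 2 overlapping boxes and 70.8% for Acsl4, 2 boxes and 59.6% for Hadh and 1 box and 58.8% for Hadha. Single CCAAT boxes were found in the Ppard and Hadh stretches. RefSeq windows from 250 bases before to 50 bases after the start were found for 29 of the 34 genes (not Acad9, Decr1, Acaa2, Ppargc1b and Hsd17b4). In these windows, on both strands, the GC box occurred in 22 of 29 genes and in 35.9% of all 32544 mouse windows, and the CCAAT box in 14 of 29 genes and in 37.4% of all windows. A gene was counted if any of its windows held the motif, whereas the shares are of single windows, without a filter on counts. The figures here and below are therefore not like for like. The AP-1 motif TGANTCA occurred in 2 of 29 (Acadvl and Acot8; 7.79% of all windows) and an NF-kB motif in 3 of 29 (Etfa, Abcd3 and Decr2; 8.49%). The direct repeat bound by PPAR and RXR in its strict form (DR1, 0.0399% of all windows), the oestrogen-related receptor motif (0.412%) and the full cAMP response element (1.8%) were not found in these 29, which says only that these letters were absent from these windows. The RefSeq starts of Hadha and Hadhb, the subunits of the mitochondrial trifunctional protein, lay 273 bases apart on opposite strands, so that their windows shared 228 bases. In the GENCODE annotation the Hadha start is at 30155162, inside the stretch printed above, and the Hadhb start at 30155248.

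Levels per kilobase of transcript spanned more than 100-fold among the members at 3 h in control cells. The synthetases Acsl1 and Acsl5 and the long-chain dehydrogenase Acadl stood at the top with 31.6, 27.3 and 29.5 CPM per kilobase, and Ehhadh, the L-bifunctional enzyme of peroxisomes, stood at the bottom with 0.103. In the carnitine shuttle, the outer membrane transferase Cpt1a (13.7 CPM per kilobase) was above the translocase Slc25a20 (6.57) and the inner membrane transferase Cpt2 (2.93). Both trifunctional protein subunits were detected, but Hadha stood at 17.7 and Hadhb at 2.03 CPM per kilobase, beside the pseudogene match of Hadhb given above. Of the regulators, the nuclear receptor Ppard was at 1.76 and its relative Ppara held 0 CPM in every library.

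**Figure D1:**
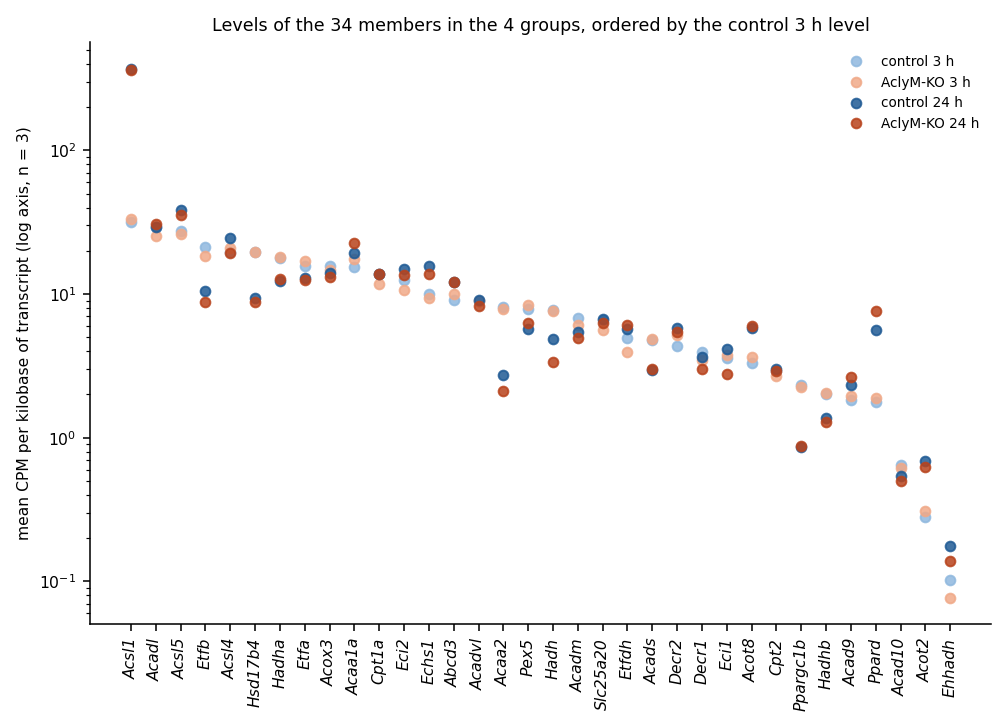
Mean level of each of the 34 genes in CPM per kilobase of transcript (vertical log axis, n = 3 libraries a group), ordered by the control 3 h level, with 1 point for each of the 4 groups. Acsl1 stands apart at 24 h, at 369 in control and 365 in AclyM-KO cells, and Ehhadh is lowest in every group.

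The comparison of 24 h with 3 h LPS asked how the pathway moved as activation went on. A gene is called changed at an adjusted p under 0.05 (edgeR's quasi-likelihood test with Benjamini-Hochberg adjustment over all transcripts tested) if its log2 fold change is also above 0.75 or below -0.75. In control cells 4 of the 34 genes rose (Acsl1, Ppard, Acot2 and Acot8), where 20.9% of the 11949 genes tested did, and 4 fell (Acaa2, Ppargc1b, Hsd17b4 and Etfb), where 19.5% did. At the adjusted p alone, 13 were higher (background 38.9%) and 12 lower (36%). In AclyM-KO cells 3 rose (Acsl1, Ppard and Acot2; background 21.9%) and 5 fell (Acaa2, Ppargc1b, Hadh, Hsd17b4 and Etfb; 20%), and 13 were higher (39.4%) and 13 lower (36.3%) at the adjusted p alone. The median log2 fold change was 0.02 in control and -0.03 in AclyM-KO cells, against 0.04 and 0.05 over all genes. Libraries of the 2 times did not overlap for 12 members that were higher and 12 that were lower at 24 h in control cells (77.5% of all genes did not overlap), and for 14 and 13 in AclyM-KO cells (76.8%). So the median of the members lay near 0, with single steps going up or down.

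**Figure D2:**
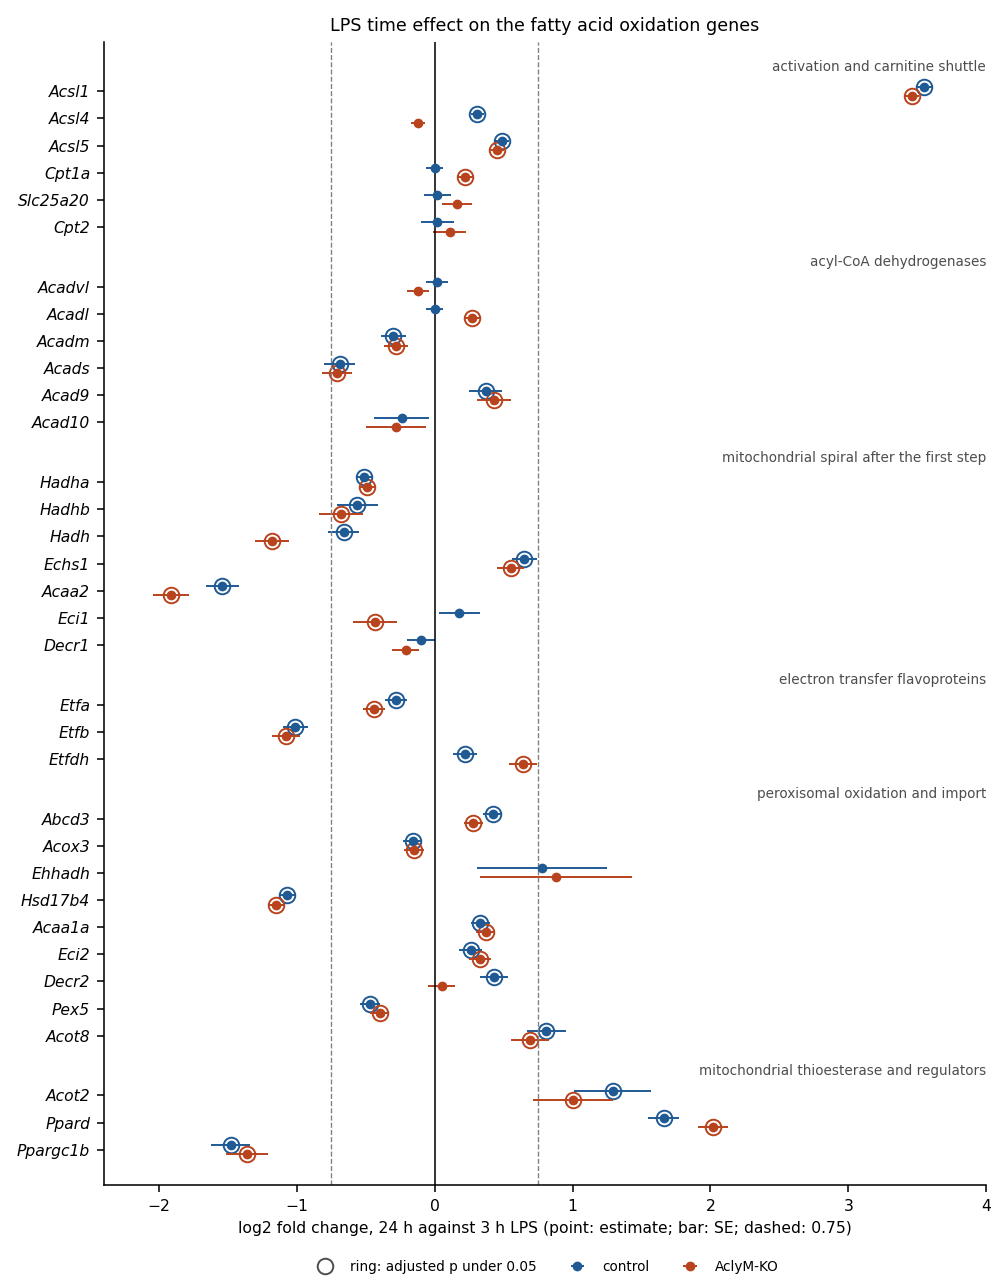
Log2 fold change from 3 h to 24 h LPS (horizontal axis) of each gene, grouped by role, in control (blue) and AclyM-KO cells (orange); bars are SE, rings mark an adjusted p under 0.05 and dashed lines a log2 fold change of 0.75. Acsl1 lies at 3.55 and 3.46, and Acaa2 at the other end at -1.54 and -1.91.

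Among the genes of activation and the carnitine shuttle, Acsl1, a long-chain acyl-CoA synthetase, was at 125, 116 and 128 CPM in the control libraries at 3 h and at 1422, 1420 and 1467 CPM at 24 h. It was at 131, 124 and 133 CPM in AclyM-KO libraries at 3 h and at 1367, 1520 and 1382 CPM at 24 h. The times were far apart in both genotypes, while the genotypes overlapped at each time. The rise was 11.7-fold in control (log2 3.55 ± 0.06 SE, adjusted p = 1.43e-30) and 11-fold in AclyM-KO cells (3.46 ± 0.05, adjusted p = 2.43e-30). Acsl1 also carried the summed level of the pathway. The 34 genes together took 945 to 958 CPM in control cells at 3 h and 2261 to 2336 CPM at 24 h, but 820 to 839 and 840 to 869 CPM without Acsl1. In AclyM-KO cells the sums without Acsl1 were 805 to 816 CPM at 3 h and 797 to 822 CPM at 24 h.

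The synthetase Acsl5 was higher at 24 h at the adjusted p alone, by log2 0.49 ± 0.05 in control (adjusted p = 6.05e-10) and 0.45 ± 0.05 in AclyM-KO cells (adjusted p = 5.05e-09). Acsl4, a synthetase that prefers polyunsaturated acids such as arachidonate, was higher in control cells at the adjusted p alone (log2 0.31 ± 0.05, adjusted p = 4.99e-06) and had -0.12 ± 0.05 in AclyM-KO cells (adjusted p = 0.0506). Cpt1a, the transferase that limits the entry of long chains into mitochondria, was at 59.1 ± 1.65 CPM (SD, n = 3) at 3 h and 59.2 ± 3.04 CPM at 24 h in control cells, and went from 51.0 ± 2.12 to 59.4 ± 1.51 CPM in AclyM-KO cells (log2 0.22 ± 0.06, adjusted p = 0.00113). Slc25a20 and Cpt2 did not pass the adjusted p in either genotype, with log2 values of 0.02 to 0.16.

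None of the 6 acyl-CoA dehydrogenases, which take the first step of each turn, was changed with time by the fold threshold in either genotype. Their summed level was 105 to 110 CPM in control cells at 3 h and 102 to 107 CPM at 24 h. Acads, the short-chain enzyme, came nearest, with 8.92 ± 0.472 CPM at 3 h and 5.53 ± 0.0784 CPM at 24 h in control cells (log2 -0.69 ± 0.11, adjusted p = 1.07e-06) and -0.71 ± 0.11 in AclyM-KO cells (adjusted p = 1.03e-06). The medium-chain enzyme Acadm was lower at the adjusted p alone (-0.30 and -0.28), and Acad9, which also serves in complex I assembly, was higher (0.37 and 0.43). For Acad9 in control cells this call was lost without control 3 h replicate 3 (0.27, adjusted p = 0.0566). Acadl stayed at 56.6 ± 3.80 and 56.5 ± 1.8 CPM in control cells and went from 48.3 ± 0.623 to 58.4 ± 0.619 CPM in AclyM-KO cells (log2 0.27 ± 0.06, adjusted p = 1.17e-04).

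Of the 7 genes of the later steps of the mitochondrial spiral, 4 were lower and 1 higher at 24 h at the adjusted p alone in control cells, where 36% of all genes were lower and 38.9% higher. In AclyM-KO cells 5 were lower and 1 higher, against 36.3% and 39.4% of all genes. Acaa2, the thiolase of the last step, was at 11.6, 13.7 and 11.4 CPM in control libraries at 3 h and at 3.61, 4.43 and 4.41 CPM at 24 h. In AclyM-KO libraries it was at 10.8, 12.7 and 12.6 CPM at 3 h and 3.12, 3.66 and 2.84 CPM at 24 h. No library at 24 h came near the 3 h values. The log2 fold change was -1.54 ± 0.12 (adjusted p = 6.91e-13) in control and -1.91 ± 0.13 (adjusted p = 2.77e-14) in AclyM-KO cells.

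Hadh, a 3-hydroxyacyl-CoA dehydrogenase of shorter chains, went from 12.9, 14.2 and 14.6 CPM to 10.6, 6.91 and 8.75 CPM in control libraries. Its log2 fold change of -0.66 ± 0.11 (adjusted p = 5.82e-06) fell short of 0.75. In AclyM-KO libraries it went from 13.3, 14.2 and 13.2 CPM to 5.11, 6.51 and 6.37 CPM, a log2 fold change of -1.18 ± 0.12 (adjusted p = 7.65e-10). The times did not overlap in either genotype. Hsd17b10, a further 3-hydroxyacyl-CoA dehydrogenase that is not among the members, rose instead. It went from 13.6 ± 0.597 to 53.3 ± 3.47 CPM in control cells (log2 1.97 ± 0.08, adjusted p = 1.59e-19). In AclyM-KO cells it went from 12.6 ± 1.60 to 46.5 ± 3.88 CPM (1.89 ± 0.08, adjusted p = 7.97e-19). The fall of Hadh was therefore not shared by every gene of this kind. Hadha and Hadhb were lower at the adjusted p alone: log2 -0.51 ± 0.06 and -0.56 ± 0.15 in control, and -0.49 ± 0.06 and -0.68 ± 0.16 in AclyM-KO cells. Hadhb has the pseudogene match given above, and a part of the stretch between the starts of Hadha and Hadhb was not tested. Echs1, the short-chain enoyl-CoA hydratase, went the other way, from 15.5 ± 1.91 to 24.3 ± 1.03 CPM in control (log2 0.65 ± 0.09, adjusted p = 4.93e-07) and by 0.55 ± 0.10 in AclyM-KO cells (adjusted p = 1.03e-05). Eci1, an isomerase for unsaturated chains, passed the adjusted p with time in AclyM-KO cells but not in control cells (-0.43 ± 0.16, adjusted p = 0.0171, against 0.18 ± 0.15, adjusted p = 0.269 in control), and the test of that difference missed the threshold (adjusted p = 0.0760). Without AclyM-KO 24 h replicate 1 the Eci1 call was lost (adjusted p = 0.122). Decr1 did not pass with time in either genotype (-0.10 and -0.21).

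Of the electron transfer flavoproteins, Etfb, the beta subunit, was at 17.4, 21.3 and 18.3 CPM in control libraries at 3 h and at 9.47, 8.82 and 9.86 CPM at 24 h, and at 16.5, 16.1 and 16.9 CPM and then 7.10, 8.81 and 7.52 CPM in AclyM-KO libraries. All 24 h libraries lay below all 3 h libraries. It fell by log2 -1.01 ± 0.09 (adjusted p = 3.67e-11) and -1.08 ± 0.10 (adjusted p = 3.24e-11). The alpha subunit Etfa was lower at the adjusted p alone (-0.28 ± 0.08 and -0.44 ± 0.08). Etfdh, the oxidoreductase that hands these electrons to ubiquinone, went up instead, from 9.31 ± 0.414 to 14.4 ± 0.430 CPM in AclyM-KO cells (log2 0.64 ± 0.10, adjusted p = 8.95e-07). In control cells it was at 11.8 ± 0.951 and 13.5 ± 1.51 CPM (0.22 ± 0.09, adjusted p = 0.0380). This call was lost without control 24 h replicate 4, control 3 h replicate 1 or control 3 h replicate 2 (log2 values down to 0.10). It was also lost under DESeq2, with DESeq2 size factors, with 1 transcript per gene or with the replicate number as a block.

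In peroxisomes, Hsd17b4, the D-bifunctional enzyme, was at 54.0, 50.6 and 53.5 CPM in control libraries at 3 h and at 25.3, 24.1 and 25.8 CPM at 24 h. In AclyM-KO libraries it was at 55.1, 49.9 and 52.1 CPM and then at 23.4, 23.0 and 24.3 CPM. The libraries of a time lay close together in both genotypes, and the times did not overlap. The fall was log2 -1.07 ± 0.06 (adjusted p = 8.99e-16) and -1.15 ± 0.06 (adjusted p = 2.32e-16). Acot8, the peroxisomal thioesterase, was at 4.37, 4.12 and 2.94 CPM at 3 h and 7.26, 6.35 and 6.58 CPM at 24 h in control libraries (log2 0.81 ± 0.14, adjusted p = 4.79e-06), and without control 3 h replicate 3 its log2 fold change was 0.67. In AclyM-KO cells the value was 0.69 ± 0.14 (adjusted p = 4.61e-05), and the difference between genotypes was not past the threshold (-0.12 ± 0.20, adjusted p = 0.775). The transporter Abcd3, the thiolase Acaa1a and the isomerase Eci2 were higher in both genotypes at the adjusted p alone, by 0.26 to 0.42, and the import receptor Pex5 was lower (-0.47 and -0.40). The reductase Decr2 was higher in control cells (0.43, adjusted p = 3.14e-04) and had 0.05 in AclyM-KO cells, a difference that did not pass (-0.38 ± 0.14, adjusted p = 0.0904). Acox3, an acyl-CoA oxidase, had log2 values of -0.16 and -0.15, and these calls were lost in 4 leave-outs each (adjusted p up to 0.244 and 0.179): without control 24 h replicate 4 or any control 3 h library, and without AclyM-KO 24 h replicates 2 or 3 or AclyM-KO 3 h replicates 1 or 3. Ehhadh, with 126 counts over the 12 libraries, was too sparse for a call (0.78 ± 0.47 and 0.88 ± 0.55).

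The regulators moved in opposite directions. Ppard, a lipid-sensing nuclear receptor, was at 4.47, 6.74 and 6.13 CPM in control libraries at 3 h and at 18.2, 20.3 and 17 CPM at 24 h, and at 6.66, 5.42 and 6.39 CPM and then 23.2, 26.1 and 25.3 CPM in AclyM-KO libraries. It rose by log2 1.66 ± 0.11 (adjusted p = 6.64e-14) in control and 2.02 ± 0.11 (adjusted p = 3.61e-16) in AclyM-KO cells. Ppargc1b, a coactivator of mitochondrial genes, was at 8.69, 7.11 and 9.72 CPM at 3 h and 3.65, 3.20 and 2.60 CPM at 24 h in control libraries, and at 8.25, 7.92 and 8.61 CPM and then 3.68, 2.86 and 3.11 CPM in AclyM-KO libraries. Neither gene overlapped between times. Ppargc1b fell by log2 -1.48 ± 0.14 (adjusted p = 1.19e-10) and -1.36 ± 0.15 (adjusted p = 1.38e-09). Acot2, a mitochondrial thioesterase, rose from 0.620 ± 0.198 to 1.5 ± 0.275 CPM in control (1.29 ± 0.28, adjusted p = 1.32e-04) and from 0.678 ± 0.105 to 1.37 ± 0.0697 CPM in AclyM-KO cells (1.00 ± 0.29, adjusted p = 0.00232), on 361 counts in all. Its near copy Acot1 held 17 counts.

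**Figure D3:**
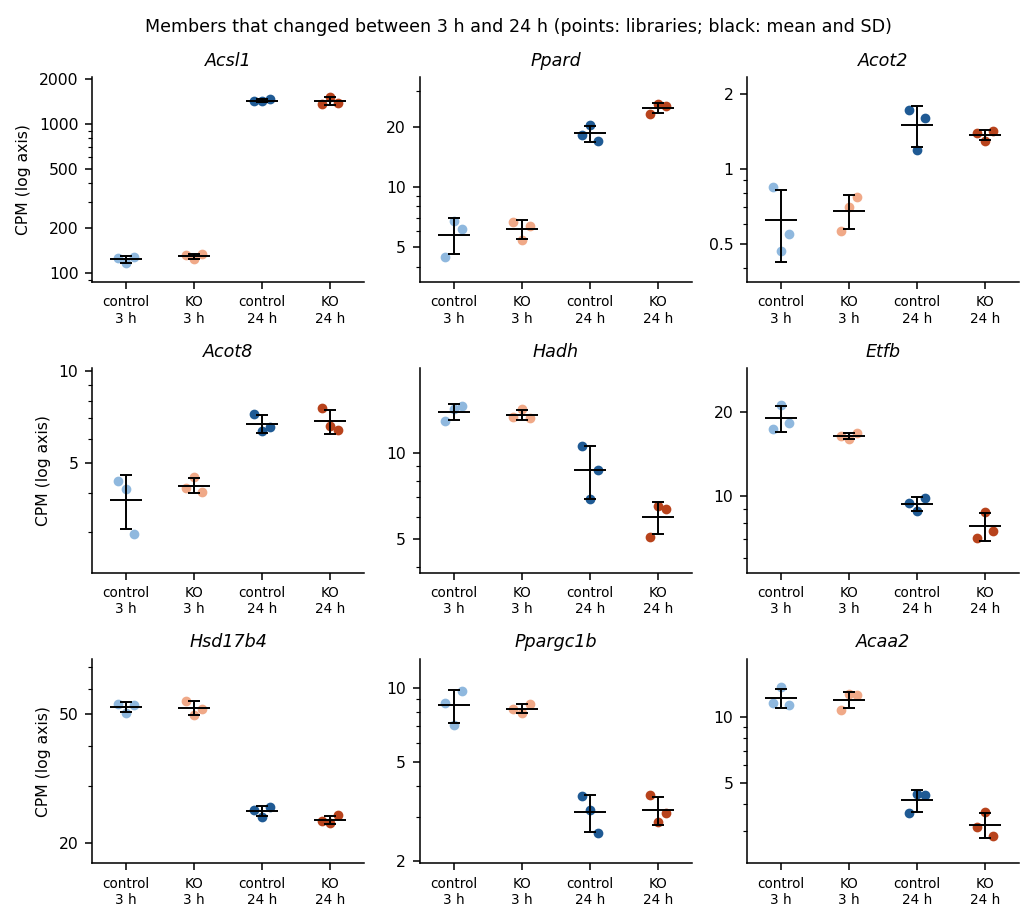
CPM in each library (points, log axis) of the 9 genes changed between 3 h and 24 h in either genotype, with mean and SD in black (n = 3). Acsl1, Ppard, Acot2 and Acot8 are higher at 24 h, the other 5 are lower, and no 24 h library overlaps the 3 h libraries of its genotype.

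The comparison of genotypes asked whether deletion of Acly altered the oxidation genes at either time. At 3 h, edgeR's quasi-likelihood test found 0 of the 34 genes changed, where 1.41% of all genes were changed upwards and 0.594% downwards. Without adjustment 7 had a p under 0.05, and DESeq2 also found 0 changed. At the adjusted p alone, 0 were higher (background 8.49%) and 3 lower (6.90%): Cpt1a, Acadl and Etfdh. The median log2 fold change was -0.02, against -0.01 over all genes, and values ran from -0.46 to 0.27. The 95% intervals of 32 members lay within 0.75 on either side of 0, the exceptions being Ehhadh and Acot2. Libraries of the genotypes did not overlap for 2 members that were higher and 7 that were lower in AclyM-KO cells (30% of all genes did not overlap).

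At 24 h, edgeR again found 0 of 34 genes changed, where 0.895% of all genes were changed upwards and 0.477% downwards. Without adjustment 10 had a p under 0.05, and DESeq2 found 0 changed. At the adjusted p alone, 2 were higher (Ppard and Acaa1a; background 8.32%) and 4 lower (Acsl4, Hadh, Eci1 and Decr1; 5.56%). The median was -0.09, against 0.01 over all genes, with a range of -0.55 to 0.44, and the intervals of 31 members lay within 0.75, those of Hadh, Eci1 and Ehhadh reaching beyond. Libraries did not overlap for 4 members that were higher and 8 that were lower (33.1% of all genes). None of the 9 genes past the adjusted p at one time was past it at the other, which alone does not show that an effect differed between the times.

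**Figure D4:**
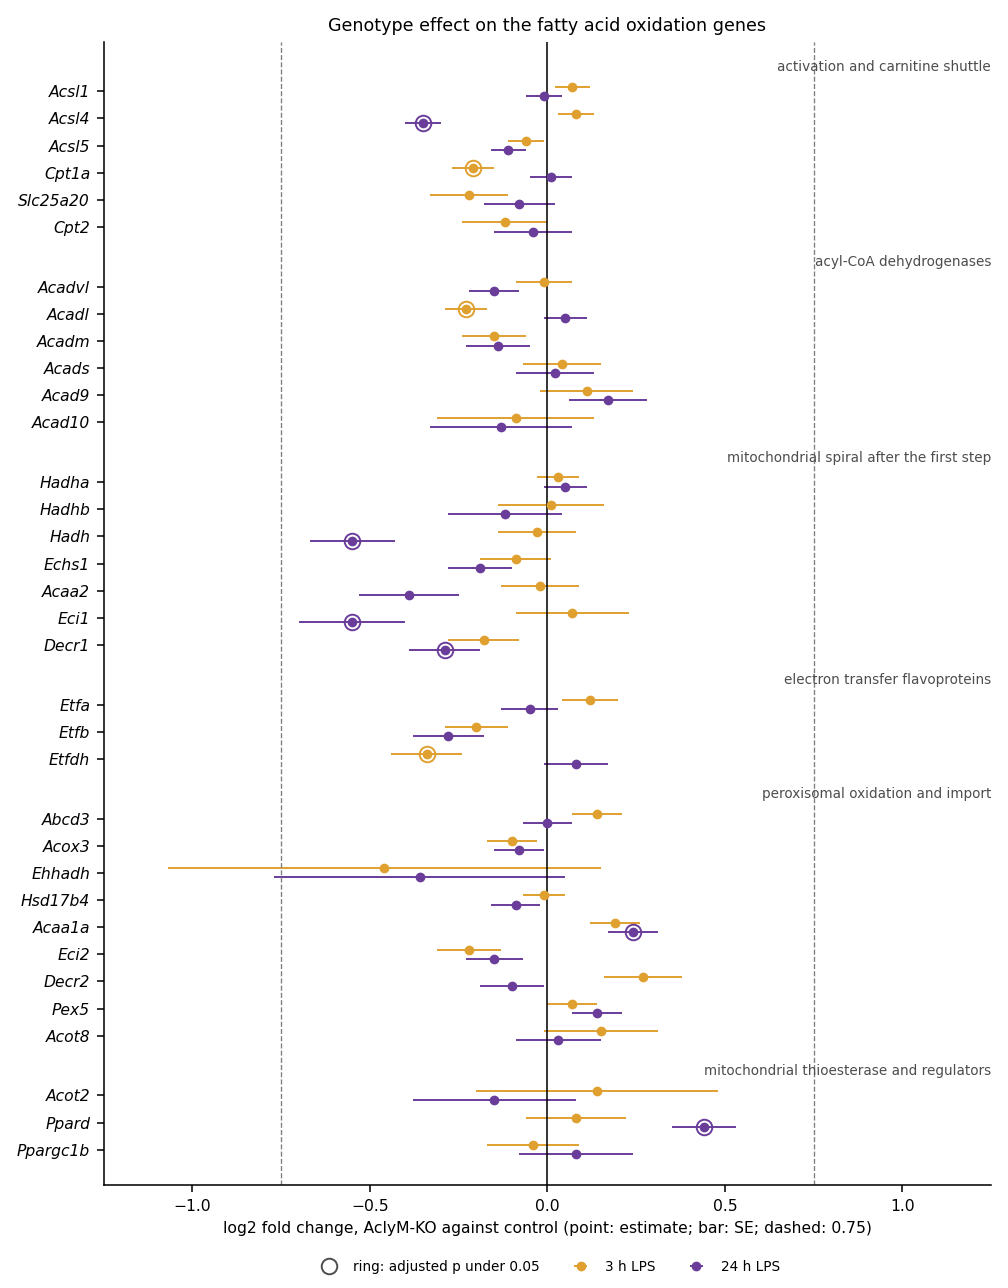
Log2 fold change of AclyM-KO against control (horizontal axis) of each gene, grouped by role, at 3 h (yellow) and 24 h LPS (purple); bars are SE, rings mark an adjusted p under 0.05 and dashed lines a log2 fold change of 0.75. All points lie between the dashed lines, and the lowest with a ring are Hadh and Eci1 at 24 h, both at -0.55.

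The 3 genes that differed at 3 h act at entry, in the first step and in electron transfer. Cpt1a was at 57.4, 59.2 and 60.7 CPM in control and 53.4, 50.1 and 49.5 CPM in AclyM-KO libraries (log2 -0.21 ± 0.06, adjusted p = 0.0125), a call lost without AclyM-KO 3 h replicate 3 or control 3 h replicate 3 (adjusted p up to 0.0672). Acadl was at 52.3, 57.9 and 59.5 CPM against 48.3, 48.9 and 47.6 CPM (-0.23 ± 0.06, adjusted p = 0.00804), lost without control 3 h replicate 3 (adjusted p = 0.0664). Etfdh was at 10.9, 11.7 and 12.8 CPM against 9.58, 8.83 and 9.52 CPM (-0.34 ± 0.10, adjusted p = 0.0210), lost without AclyM-KO 3 h replicate 2, control 3 h replicate 2 or control 3 h replicate 3 (adjusted p up to 0.121). In each of these genes every AclyM-KO library lay below every control library at 3 h. At 24 h the groups of all 3 overlapped, with log2 values of 0.01 ± 0.06 for Cpt1a, 0.05 ± 0.06 for Acadl and 0.08 ± 0.09 for Etfdh.

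The 4 genes that were lower at 24 h include the synthetase Acsl4. Acsl4 was at 115, 122 and 127 CPM in control and 100, 91.8 and 93.5 CPM in AclyM-KO libraries at 24 h (log2 -0.35 ± 0.05, adjusted p = 2.00e-05), and at 97.4, 100 and 96.0 CPM against 102, 107 and 100 CPM at 3 h (0.08 ± 0.05, adjusted p = 0.381). Every AclyM-KO library lay below every control library at 24 h, whereas at 3 h they lay above or, to the digits given, level with them. The other 3 belong to the mitochondrial spiral, in which 6 of 7 genes had a log2 value below 0 at 24 h and the median was -0.29. Of all 11949 genes tested 5819 were below 0 at 24 h (median 0.01), and of the 34 members 23 were (median -0.09). Hadh, with the libraries given above, was at 8.74 ± 1.83 CPM in control and 6.0 ± 0.775 CPM in AclyM-KO cells (-0.55 ± 0.12, adjusted p = 0.00238). Eci1 was at 4.51, 5.37 and 4.23 CPM in control and 2.55, 3.54 and 3.42 CPM in AclyM-KO libraries (-0.55 ± 0.15, adjusted p = 0.0128), a call lost without AclyM-KO 24 h replicate 1 or control 24 h replicate 3 (adjusted p up to 0.118). Decr1, the dienoyl-CoA reductase for unsaturated chains, was at 11, 10.1 and 11.5 CPM against 8.78, 9.17 and 8.94 CPM (-0.29 ± 0.10, adjusted p = 0.0445). The groups of these 3 did not overlap. The Decr1 call was lost under DESeq2, with all 13 libraries and with the replicate number as a block (-0.19, adjusted p = 0.309). It was also lost in 6 of 12 leave-outs (adjusted p up to 0.202): without any 24 h AclyM-KO library, AclyM-KO 3 h replicate 3, or control 24 h replicates 2 or 4. Acaa2 was at 4.15 ± 0.471 CPM in control and 3.21 ± 0.417 CPM in AclyM-KO cells, with groups that overlapped (-0.39 ± 0.14, adjusted p = 0.0596).

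Both genes that were higher at 24 h lie outside the mitochondrial spiral. Ppard, with the libraries given above, was at 18.5 ± 1.67 CPM in control and 24.9 ± 1.48 CPM in AclyM-KO cells without overlap (log2 0.44 ± 0.09, adjusted p = 0.00110), whereas at 3 h it was at 5.78 ± 1.18 and 6.16 ± 0.651 CPM (0.08 ± 0.14, adjusted p = 0.745). Acaa1a, the peroxisomal thiolase, was at 33.7, 31.9 and 35.9 CPM in control and 41.7, 40.6 and 38.0 CPM in AclyM-KO libraries (0.24 ± 0.07, adjusted p = 0.0158), a call lost without AclyM-KO 24 h replicates 1 or 2 or control 24 h replicates 2 or 3 (adjusted p up to 0.0936). The groups did not overlap at either time. At 3 h Acaa1a was at 27.1 ± 1.96 against 31.0 ± 1.59 CPM (0.19 ± 0.07, adjusted p = 0.0729). Myd88, which overlaps Acaa1a on the other strand, was at 67.7 CPM in control and 70.9 CPM in AclyM-KO cells at 24 h. The calls of Acsl4, Hadh and Ppard at 24 h were kept in all 12 leave-outs.

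**Figure D5:**
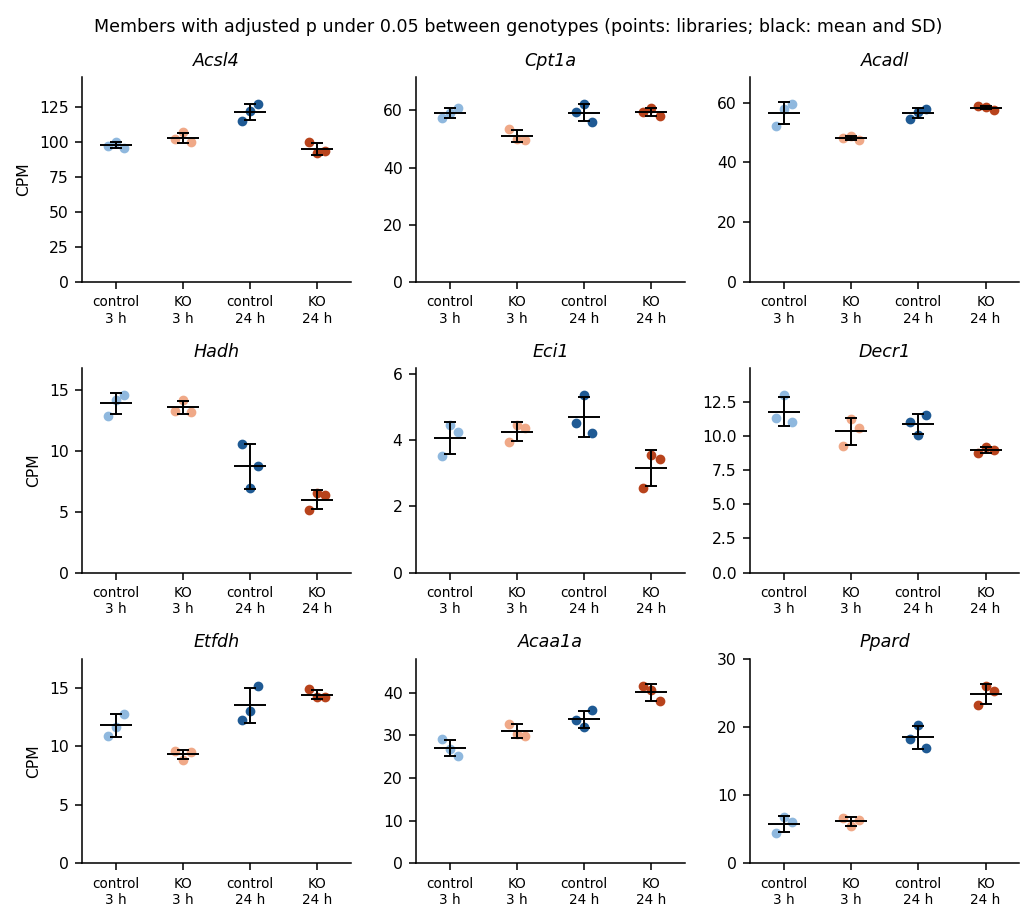
CPM in each library (points, axis from 0) of the 9 genes with an adjusted p under 0.05 between genotypes at 3 h or 24 h, with mean and SD in black (n = 3). The genotypes separate at 3 h in Cpt1a, Acadl and Etfdh, at 24 h in Hadh, Eci1, Decr1 and Ppard, and at both times in Acaa1a. Acsl4 separates at 24 h with AclyM-KO lower, and narrowly at 3 h with AclyM-KO higher.

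Among the members without a genotype call, the largest values by role were small or uncertain. Slc25a20, the carnitine carrier, was at 14.1, 10.2 and 10.8 CPM in control and 9.78, 10.5 and 9.90 CPM in AclyM-KO libraries at 3 h (-0.22 ± 0.11, adjusted p = 0.188). Acad9 was at 9.2 ± 0.440 against 10.4 ± 1.04 CPM at 24 h (0.17 ± 0.11, adjusted p = 0.320), and Etfb at 9.39 ± 0.525 against 7.81 ± 0.891 CPM (-0.28 ± 0.10, adjusted p = 0.0616). Decr2, the peroxisomal dienoyl-CoA reductase, was at 9.61 ± 1.53 against 11.6 ± 0.620 CPM at 3 h (0.27 ± 0.11, adjusted p = 0.0791). For the sparse Ehhadh (-0.46 ± 0.61 at 3 h) and Acot2 (-0.15 ± 0.23 at 24 h) no difference was detectable at this depth. The strongly induced Acsl1 differed by 0.07 ± 0.05 at 3 h (95% interval -0.03 to 0.17) and by -0.01 ± 0.05 at 24 h (-0.11 to 0.08).

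Whether the genotype effect itself differed between the times was tested as an interaction, which 4 members passed at an adjusted p under 0.05, 2 in each direction, where 4.85% of all genes were higher and 4.67% lower. Acsl4 had a difference of -0.42 ± 0.08 (adjusted p = 2.85e-04) between its effects of 0.08 at 3 h and -0.35 at 24 h. Hadh had -0.51 ± 0.17 (adjusted p = 0.0483), Acadl 0.27 ± 0.08 (adjusted p = 0.0316) and Etfdh 0.42 ± 0.14 (adjusted p = 0.0453). Acsl4 kept its call in all 12 leave-outs, whereas Acadl, Hadh and Etfdh lost theirs in 8, 10 and 9 of 12. DESeq2 did not call Hadh and Etfdh, and with all 13 libraries Acsl4 alone passed. Ppard did not pass (0.36 ± 0.16, adjusted p = 0.183). Nor did the other genes with a genotype call: Cpt1a (0.22 ± 0.08, adjusted p = 0.0848), Eci1 (-0.62 ± 0.22, adjusted p = 0.0760), Decr1 (-0.11 ± 0.14, adjusted p = 0.712) and Acaa1a (0.04 ± 0.10, adjusted p = 0.847). The effects of these genes at the 2 times were therefore not shown to differ.

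Other genes of the pathway, listed by function, are given by counts at the adjusted p alone. Between genotypes the shares of all genes tested were 8.49% higher and 6.90% lower at 3 h and 8.32% and 5.56% at 24 h, and with time they were 38.9% higher and 36% lower in control and 39.4% and 36.3% in AclyM-KO cells. Of 34 further oxidation genes 22 were tested, with 3 higher and 1 lower at 3 h and 0 higher and 1 lower at 24 h. Those at 3 h included the carnitine acetyltransferase Crat (0.22), the transporter Slc22a4 (0.72) and the alpha-oxidation enzyme Phyh (-0.25). The 1 lower at 24 h was also changed by the fold threshold: Abcd2, a peroxisomal transporter of very long chains, was at 1.72, 1.96 and 1.57 CPM in control and 0.826, 0.844 and 0.883 CPM in AclyM-KO libraries (log2 -1.01 ± 0.27, adjusted p = 0.00925), without overlap. At 3 h the Abcd2 libraries overlapped (-0.70 ± 0.29, adjusted p = 0.102). With time 14 of these 22 were higher and 3 lower in control cells, and 11 and 3 in AclyM-KO cells. Of 18 peroxisome assembly and matrix genes tested, 1 was higher at 3 h (Cat) and 1 lower at 24 h (the import receptor Pex7, -0.35), and 15 were higher and 1 lower with time in control cells (12 and 1 in AclyM-KO cells). Catalase (Cat), which breaks down the hydrogen peroxide made by peroxisomal oxidases, was at 118, 119 and 127 CPM in control and 186, 159 and 183 CPM in AclyM-KO libraries at 3 h (log2 0.54 ± 0.06, adjusted p = 4.69e-08), without overlap, and at 286 ± 12.3 and 310 ± 5.42 CPM at 24 h (0.12 ± 0.05, adjusted p = 0.161). Pxmp2 and Pex10, with larger estimates at 3 h (0.95 ± 0.51 and -0.77 ± 0.45), were below 1 CPM at that time and did not pass. Of 16 PPAR relatives, coactivators and classical targets tested, 1 was lower in AclyM-KO cells at each time: the coactivator Pprc1 at 3 h (-0.26 ± 0.09, adjusted p = 0.0498) and the uncoupling protein Ucp2 at 24 h (-0.32 ± 0.05, adjusted p = 1.12e-04). With time 5 of these 16 were higher and 8 lower in control cells, and 6 and 7 in AclyM-KO cells. The fatty acid receptor Cd36 was at 484 ± 26.4 and 644 ± 160 CPM at 3 h (0.41 ± 0.18, adjusted p = 0.187).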

How the data were processed

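RNA of 13 libraries had been made into strand-specific mRNA libraries, aligned to mm10 with STAR 2.5.2b after CASAVA 1.8.2 (versions from the submitters' processing notes) and filtered with SAMtools, and HOMER had summed tags per RefSeq transcript. The deposited values are these raw counts, without normalization, on 35745 transcripts, of which 35628 were matched to a symbol. The 117 others took 1.13% of counts and stayed in the fit, and 0 columns were unused. The strand setting of the counting was not given in the sources used here. Libraries were grouped from their labels. Control 24 h replicate 1 was left out. edgeR 4.0.16 in R 4.3.3 was used with TMM, filterByExpr and robust quasi-likelihood fits on 12 libraries and 4 groups, with Benjamini-Hochberg adjustment over the 19621 transcripts that passed, and was tested on simulated data. DESeq2 1.42.0, other scalings and filters, 1 transcript per gene, 2-group fits, a replicate block and leave-outs were alternatives. CPM are TMM-scaled. SE came from the F statistic, and 95% intervals are normal. Each gene was its transcript with the highest total. Replicates of a group differed beyond sampling noise (chi-square per degree of freedom 2.45 to 11.7). Members and lists were chosen with earlier results of these data known. The genes named with full values were those changed in any contrast, those with an interaction, the 2 of each role with the largest genotype effect and, of the other lists, changed genes or the 3 with the largest effect; others named beside them were chosen after their values were seen. Gene overlaps and near copies came from GENCODE M21, and promoters from RefSeq. The values of 1 further gene are not reported here.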

Additional observations from a re-analysis of the deposited data

Results flagged for a closer look

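The genotype effect differed between 24 h and 3 h LPS, by edgeR's test of the interaction, in 4 of the 34 genes, where 4.85% of all genes had a higher and 4.67% a lower value. The difference in log2 fold change was -0.42 for Acsl4, -0.51 for Hadh, 0.27 for Acadl and 0.42 for Etfdh. Acsl4 and Hadh were lower in AclyM-KO cells at 24 h, and Acadl and Etfdh at 3 h. Leaving out 1 library at a time ended the call in 8 of 12 cases for Acadl, 10 for Hadh and 9 for Etfdh, and in 0 for Acsl4. DESeq2 lost Hadh and Etfdh, the fit without a filter on low counts lost Acadl and Etfdh, and the fit with all 13 libraries lost Acadl, Hadh and Etfdh.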

How the results depend on the processing

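Of the 34 genes, 3 and 6 passed between genotypes at 3 h and 24 h with no fold threshold, and 2 at 24 h with a log2 threshold of 0.5. With time, a threshold of 0.5 gave 13 genes in each genotype, and no fold threshold gave 25 in control and 26 in AclyM-KO cells. The interaction was passed by 1 gene with all 13 libraries, by 2 under DESeq2 and by 2 without a filter on low counts. Leaving out 1 library at a time gave 1 to 4 genes past the adjusted p at 3 h (1 without control 3 h replicate 3), 3 to 8 at 24 h (3 without AclyM-KO 24 h replicate 1) and 1 to 6 for the interaction. Over all alternatives, the calls of single members past the adjusted p in any comparison were kept in 1199 cases, lost in 77 and reversed in 0. The causes were not tested, but leave-outs hold fewer samples.

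Replicate numbers are shared between groups, but libraries with the same number did not deviate together (r from -0.05 to 0.10). The labels do not say what libraries with equal numbers have in common. Neither this check nor the block below can therefore test a pairing by mouse or culture. With a replicate block, 0, 0, 8 and 8 genes were changed in the 4 comparisons, 4, 5, 23 and 27 passed the adjusted p alone, and 3 passed the interaction. The block ended the calls of Decr1 between genotypes at 24 h (-0.19, adjusted p = 0.309), of Etfdh (0.10, adjusted p = 0.388) and Acox3 (-0.05, adjusted p = 0.440) with time in control cells, and of Hadh in the interaction (-0.45, adjusted p = 0.133). Control 24 h replicate 4, whose number no other group holds, adds nothing to that fit. Fits on 2 groups do not give the interaction. Other scalings moved the median of all genes by at most 0.03. Ehhadh and Acot2 are limited by depth.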

Other observations

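Fatty acid entry and binding genes, read from a list of 10 of which 9 were tested, were compared between genotypes at the adjusted p alone: 3 were higher and 1 lower in AclyM-KO cells at 3 h (Fabp3, the transporters Slc27a1 and Slc27a4, and Acbd3; 8.49% and 6.90% of all genes), and 1 was higher and 2 lower at 24 h (Fabp3, Fabp5 and Dbi; 8.32% and 5.56%). Fabp3, a fatty acid binding protein best known from muscle, was at 7.05, 5.57 and 7.23 CPM in control and 8.71, 9.97 and 9.09 CPM in AclyM-KO libraries at 3 h, and at 11.5, 12.3 and 12.3 CPM against 17.2, 18.6 and 17.9 CPM at 24 h. The genotypes did not overlap at either time (log2 0.49 ± 0.11, adjusted p = 0.00245, and 0.57 ± 0.09, adjusted p = 2.54e-05). Fabp5, the binding protein of macrophages and skin, was at 290, 307 and 316 CPM in control and 223, 225 and 235 CPM in AclyM-KO libraries at 24 h (-0.42 ± 0.05, adjusted p = 1.50e-06). Dbi, the acyl-CoA binding protein, was at 19.6, 16.7 and 18.9 CPM against 14.3, 13.1 and 12 CPM at 24 h (-0.49 ± 0.09, adjusted p = 2.35e-04). Neither overlapped between genotypes at 24 h, and at 3 h their log2 values were -0.04 and 0.16.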
